A study of Mus musculus with 12 samples.

Results

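Replication-dependent histone genes in RAW264 cells gave footprints of up to 1553 CPM per gene (CPM, reads scaled to the total of a library), while most of them were nearly absent from the poly(A) mRNA libraries of the same cells. Their footprints were lower after 30 min of lipopolysaccharide (LPS), and those of H2B genes were lowest when dexamethasone (DEX) was given with LPS. The genes were all listed genes whose mouse symbol starts with Hist1h, Hist2h, Hist3h or Hist4h. They numbered 59 of the 9621 listed genes: 5 for linker histone H1, 19 for H2A, 15 for H2B, 7 for H3 and 13 for H4. The table of gene names holds 70 such symbols, and the other 11 were not analysed here.

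RAW264 is a mouse macrophage line, and the study sequenced poly(A) mRNA and ribosome-protected fragments (RPF, or footprints) from it. Basal cells were untreated, LPS cells received LPS at 100 ng/ml for 30 min, and LPS + DEX cells received LPS with the glucocorticoid DEX at 10 µM for 30 min. All cells, basal ones included, were incubated with cycloheximide at 100 µg/ml before extraction, a drug that holds ribosomes on mRNA. Each treatment had 2 mRNA and 2 RPF libraries, 12 in all, which the labels describe as independent biological replicates of 1 cell line.

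Replication-dependent histone genes supply the core histones H2A, H2B, H3 and H4, which form the nucleosome, and the linker histone H1, when DNA is copied in S phase. They have no introns, and their mRNAs end in a conserved stem-loop bound by SLBP in place of a poly(A) tail. Selection on poly(A) therefore leaves most of this mRNA out of a library, whereas footprints are taken from ribosomes on any mRNA. Many copies within a core histone class are close to identical in their coding sequence, so a short read can fit several genes. How the authors assigned such reads is not given in the sources used here, and the value of a single gene is uncertain in that respect. Sums over a class are less affected by reads that are split between copies of that class.

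Many H2A and H2B genes lie head to head, with a single short interval holding both promoters. Such intervals are shown for Hist1h2bp and Hist1h2bq, H2B genes whose footprints fell when DEX was given with LPS, followed by the 250 bases before the start of Hist1h4d, the H4 gene with the highest footprint level in its class, and of Hist1h1e, an H1 gene with a very uneven mRNA level. The sequences are from RefSeq on build GRCm38.p6, written 5′ to 3′ on the strand of the named gene. They are chr13:21787249-21787487 on the plus strand (the interval between the starts of Hist1h2an and Hist1h2bp), chr13:21810200-21810366 on the minus strand (the interval between Hist1h2ao and Hist1h2bq), chr13:23581318-23581567 on the plus strand (Hist1h4d) and chr13:23622559-23622808 on the minus strand (Hist1h1e). Capitals mark matches on either strand to the CCAAT box (CCAAT), the TATA box (TATAAA), the octamer ATTTGCAT, the H1 box AAACACA and GTCCG.
Hist1h2bp: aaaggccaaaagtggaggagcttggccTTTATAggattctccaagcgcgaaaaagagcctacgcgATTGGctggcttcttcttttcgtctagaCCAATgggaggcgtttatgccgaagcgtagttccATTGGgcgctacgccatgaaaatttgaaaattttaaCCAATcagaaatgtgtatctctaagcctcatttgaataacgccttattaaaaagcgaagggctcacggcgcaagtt
Hist1h2bq: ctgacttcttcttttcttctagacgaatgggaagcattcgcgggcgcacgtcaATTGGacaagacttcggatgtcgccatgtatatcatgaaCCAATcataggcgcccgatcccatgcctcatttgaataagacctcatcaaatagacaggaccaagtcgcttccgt
Hist1h4d: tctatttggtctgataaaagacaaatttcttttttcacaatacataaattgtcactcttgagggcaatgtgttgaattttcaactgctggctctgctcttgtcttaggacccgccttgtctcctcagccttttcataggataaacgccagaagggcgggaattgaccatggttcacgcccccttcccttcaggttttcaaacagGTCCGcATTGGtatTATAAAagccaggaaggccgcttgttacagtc
Hist1h1e: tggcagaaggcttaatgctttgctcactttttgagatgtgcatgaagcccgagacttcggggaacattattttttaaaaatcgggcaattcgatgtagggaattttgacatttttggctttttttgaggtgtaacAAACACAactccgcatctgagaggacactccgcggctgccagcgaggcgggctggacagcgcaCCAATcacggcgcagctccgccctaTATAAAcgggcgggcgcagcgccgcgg

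In the Hist1h2bp interval, 4 CCAAT boxes began at -174, -146, -112 and -76 from the gene's start, and a TATA box on the opposite strand began at -212, next to the start of its H2A neighbour. The shorter Hist1h2bq interval held CCAAT boxes at -114 and -75. The Hist1h4d promoter held GTCCG at -46, a CCAAT box at -40 and a TATA box at -32, and the Hist1h1e promoter held the H1 box at -115, a CCAAT box at -52 and a TATA box at -27. A RefSeq promoter was matched for 53 of the 59 genes. In the 250 bases before the start, CCAAT was found in 5 of 5 H1, 17 of 17 H2A, 13 of 13 H2B, 4 of 6 H3 and 3 of 12 H4 promoters, against 33.8% of the 32851 promoters in the table. The octamer was found in 7 of 17 H2A and 5 of 13 H2B promoters and in none of the H1, H3 or H4 promoters, against 1.6% of all promoters. GTCCG was found in 11 of 12 H4 and 8 of 17 H2A promoters and in none of the others, against 19.2%. The H1 box was found in 4 of 5 H1 promoters, 2 of 17 H2A and 1 of 13 H2B promoters, against 6.25%. TATAAA was found in 4 of 5 H1, 7 of 17 H2A, 8 of 13 H2B, 1 of 6 H3 and 6 of 12 H4 promoters, against 12.4%. The H2A and H2B windows of a facing pair overlap, so these counts are not independent. These matches describe the letters alone.

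The mRNA libraries held 1475120 to 2529666 reads and the RPF libraries 821946 to 1833560, with the 2 LPS libraries the shallowest of the RPF set. All 8 macrophage markers were listed, and none of the 5 T and B cell markers was among the listed genes. Basal replicate 1 differed from the rest of the mRNA set: its rank correlation with the other 5 mRNA libraries was 0.781 to 0.831, while those 5 correlated with each other at 0.894 to 0.98. Of 8 epithelial markers 2 were listed, and in that library they summed to 2032 CPM, against at most 6.72 CPM in the other mRNA libraries. Krt7, a keratin, was at 1108 CPM there and at most 1.98 CPM elsewhere in mRNA, and Ddr1, a collagen receptor, was at 923 CPM and at most 4.83 CPM. Every listed gene had a deposited value (CPM plus 1) above 16 in some library. Krt7 was at most 2.43 CPM in the RPF libraries, so only basal replicate 1 put it above 16. Because that library differed, the total counts of histone genes called and the class ratios that use basal mRNA are given with and without it. The cells were measured in bulk, so fewer cells in S phase and less histone mRNA or fewer ribosomes per cell cannot be told apart.

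The core histone classes H2B, H3 and H4 were close to the counting floor in mRNA. Summed, the 15 H2B genes had 29.8 and 17.9 CPM of mRNA in the 2 basal libraries, the 7 H3 genes 2.03 and 3.79 CPM, and the 13 H4 genes 10.2 and 14.1 CPM. Footprints of the same genes in basal cells summed to 9870 and 13004 CPM for H2B, 3870 and 5102 CPM for H3, and 9033 and 12350 CPM for H4. All footprint sums of these 3 classes lay more than 100-fold above the mRNA sums. In the basal libraries 13 of 15 H2B, 7 of 7 H3 and 11 of 13 H4 genes had 3 reads or fewer in both mRNA libraries, and no H1 or H2A gene did. Over all 6 mRNA libraries, 10 genes never exceeded 3 reads.

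H2A genes were the exception among core histones, with 199 and 220 CPM of mRNA in basal cells and footprints of 7800 and 10073 CPM. Every one of the 19 H2A genes was above 3 reads in at least 1 library of each treatment. Set against the pooled mRNA reads, footprint CPM per mRNA CPM in basal cells was 42.4 for H2A (95% Poisson interval 39.4 to 45.7, from 700 mRNA reads), 493 for H2B (395 to 625, 77 reads), 866 for H4 (639 to 1207, 41 reads) and 1490 for H3 (810 to 3108, 10 reads). The intervals cover the counting error of the mRNA reads alone. Of the 77 H2B reads, 36 came from Hist2h2be, 30 of them in basal replicate 1, and its own ratio was 7.39 (5.34 to 10.6). The H2B ratio therefore depends on this gene. With mRNA basal replicate 2 alone the ratios were 40.6, 640, 760 and 1184 in the same order. The intervals of H2B (456 to 930) and H4 (518 to 1163) then overlapped. In LPS cells the ratio was 12.7 for H2A, 297 for H2B, 392 for H4 and 566 for H3, and in LPS + DEX cells it was 11.5, 360, 580 and 825. The H2A interval did not overlap those of the other 3 core classes in any treatment.

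**Figure D1:**
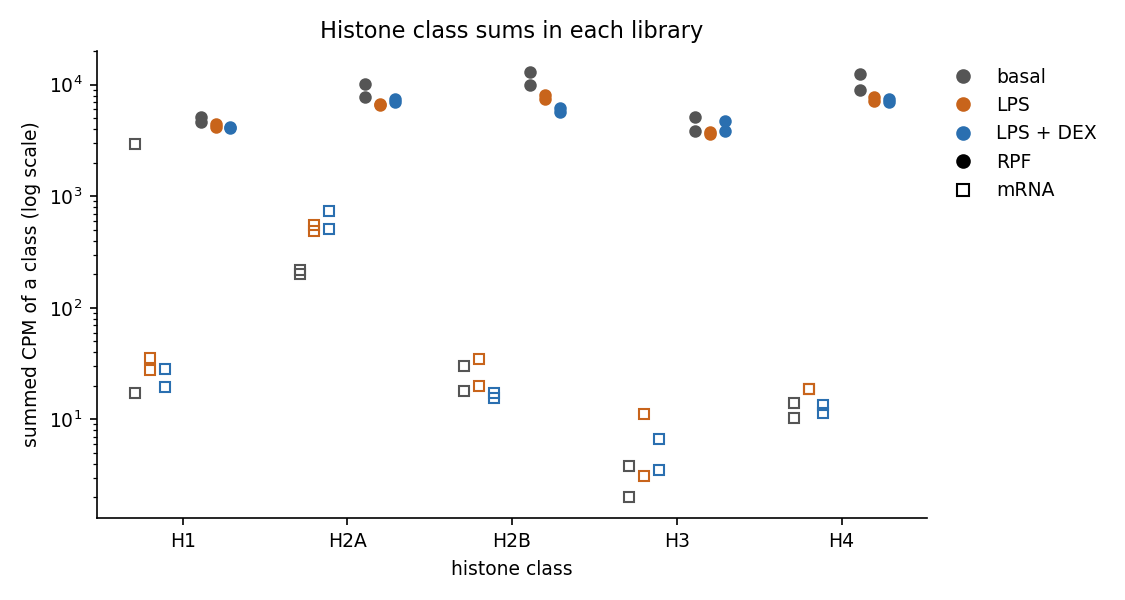
Summed CPM (log scale) of the genes of each histone class in each library, with filled circles for footprints, open squares for mRNA and colours for treatment. Footprints of H2B, H3 and H4 lie between 3632 and 13004 CPM while their mRNA lies between 2.03 and 34.9 CPM, H2A mRNA lies between 199 and 742 CPM, and 1 basal mRNA library holds 2956 CPM of H1.

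H1 mRNA was high in 1 basal library and low in the other. Hist1h1e had 1463 CPM in basal replicate 1 and 2.17 CPM in basal replicate 2, then 3.55 and 6.59 CPM with LPS and 7.12 and 3.1 CPM with LPS + DEX. Hist1h1c had 1430 and 7.04 CPM in basal cells, 14.8 and 20.2 CPM with LPS, and 15 and 12.4 CPM with LPS + DEX. Only the library that differs from the rest was high for either gene. Hist1h1a (25.1 against 2.17 CPM) and Hist1h1b (34.6 against 2.71 CPM) were also higher in it than in basal replicate 2, while Hist1h1d had 4.07 and 3.25 CPM. The 2 listed epithelial markers were high in the same library, and their part in the H1 values was not tested. The H1 footprints showed no such split: Hist1h1e had 1020 and 1147 CPM and Hist1h1c 918 and 1161 CPM in the basal RPF libraries. H1 footprints per mRNA in basal cells were 3.71 with both mRNA libraries and 283 (200 to 414) with replicate 2 alone, against 134 in LPS and 172 in LPS + DEX cells.

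Translational efficiency (TE) is the footprint level over the mRNA level of a gene, tested here with limma on log2(CPM + 1) across the genes that passed a filter on low reads. Because the mRNA libraries were selected on poly(A), TE of these genes is relative to the mRNA that passed this selection. Whether those molecules were polyadenylated was not tested. In basal cells 57 of the 59 histone genes had footprints above mRNA at an adjusted p under 0.05, against 33.4% of all genes tested. Hist1h1c (log2 3.27, SE 1.48, adjusted p = 0.0809 by limma) and Hist1h1e (3.99, SE 1.76, adjusted p = 0.0745) were the genes that did not pass, and without mRNA basal replicate 1 all 59 passed. In LPS cells 59 of 59 passed (24.8% of all genes), as in LPS + DEX cells (23.8%). No H2B, H3 or H4 gene had enough reads for an mRNA test, so these genes passed the filter through their footprints. Apart from Hist2h2be, they exceeded a deposited value of 16, as every listed gene did, only in RPF libraries. For these classes footprints above mRNA thus followed from the selection of genes, and the shares over all genes do not test it. The median fitted log2 TE of the 59 genes was 8.31 in basal, 7.54 in LPS and 7.65 in LPS + DEX cells, against 0.21, -0.06 and -0.08 over all genes. From pooled mRNA reads, without the added 1, the medians were 9.21, 8.03 and 8.54, with the few genes at 0 reads set to their bound. The basal median was 8.67 with mRNA basal replicate 2 alone. For single genes the mRNA side is a handful of reads: Hist1h2be, an H2B gene, had 3 mRNA reads in the 2 basal libraries and 1549 footprint CPM per mRNA CPM (95% Poisson interval 530 to 7514), and Hist1h2bq had 6 reads and 749 (344 to 2042). The H4 gene Hist1h4b and the H3 gene Hist2h3b had no mRNA read in either basal library, and their footprints were at least 794-fold and at least 600-fold higher than a floor of 3 reads over the group.

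**Figure D2:**
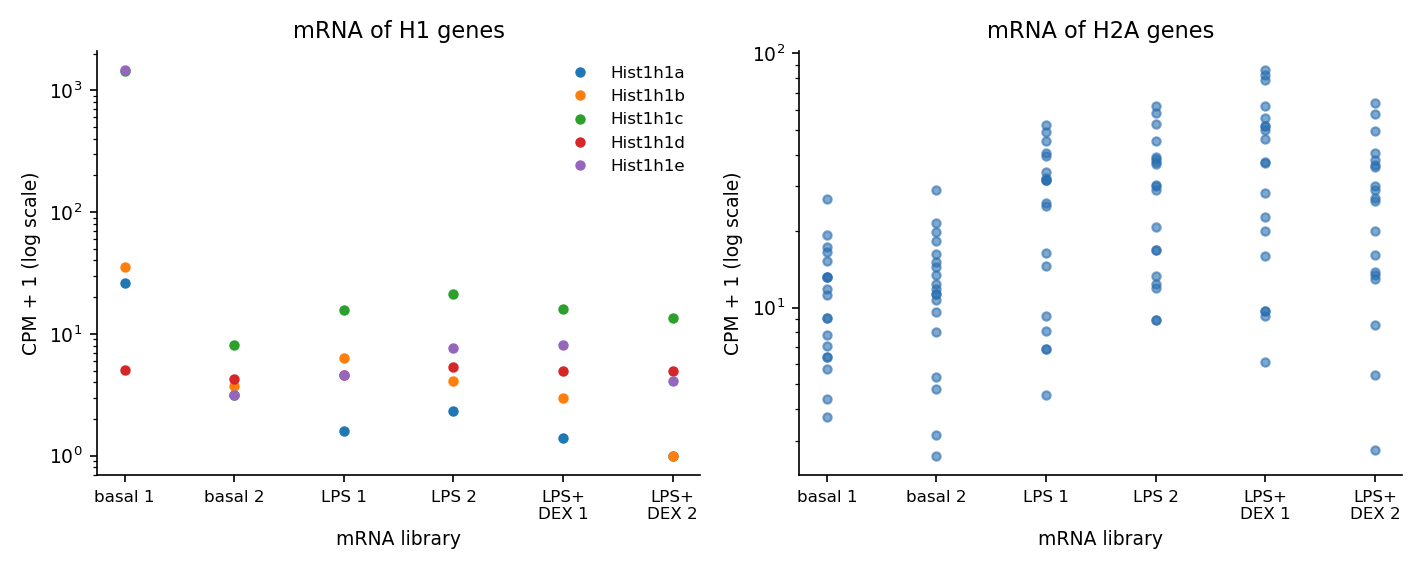
mRNA level of single genes, CPM + 1 on a log scale, in each of the 6 mRNA libraries, for the 5 H1 genes (left) and the 19 H2A genes (right, 1 point per gene). Hist1h1c and Hist1h1e reach 1430 and 1463 CPM in basal replicate 1 and stay at or below 20.2 CPM elsewhere. Group means of single H2A genes run from 2.17 to 27 CPM in basal, 5.73 to 54.5 CPM in LPS and 4.78 to 74 CPM in LPS + DEX cells.

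Footprints of all 59 genes together made up 3.52% and 4.57% of the RPF reads in basal cells, 3.08% and 2.89% with LPS, and 2.78% and 3.01% with LPS + DEX. Both basal libraries were above the 4 treated ones, and basal replicate 2 was the highest. Of 6 fibroblast markers 1 was listed, the collagen gene Col3a1, whose footprints were 115 to 142 CPM in basal, 60.8 to 65.1 CPM in LPS and 128 to 134 CPM in LPS + DEX cells. It was lower in LPS cells as the histones were, and its part was not tested. With 2 libraries a group, an exact two-sided permutation test of a single sum cannot give a p below 0.33, so the sums are given without a test.

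Summed footprints were lower with LPS than in basal cells in all 5 classes. H2B sums went from 9870 and 13004 CPM in basal cells to 8114 and 7441 CPM, a fall of 32% in the mean. H4 sums went from 9033 and 12350 to 7685 and 7139 CPM (30.7% lower), H2A sums from 7800 and 10073 to 6755 and 6522 CPM (25.7%), H3 sums from 3870 and 5102 to 3788 and 3632 CPM (17.3%) and H1 sums from 4643 and 5159 to 4471 and 4194 CPM (11.6%). The LPS libraries lay below the basal ones in every class, by a narrow margin for H1 and H3. Gene by gene, 34 of the 59 fell at an adjusted p under 0.05 and none rose, against 4.32% of all genes that fell and 3.3% that rose (limma, and 45 of 59 had an unadjusted p under 0.05). These were 12 of 19 H2A, 11 of 15 H2B, 9 of 13 H4, 2 of 7 H3 and 0 of 5 H1 genes. Copies of a class can share reads, so these and the other counts of histone genes called are not counts of independent genes. The median log2 change was -0.48 over the 59 genes and -0.07 over all genes tested.

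The gene that fell furthest with LPS was Hist3h2a, the H2A gene of the Hist3 cluster, at 389 and 427 CPM in basal, 189 and 232 CPM in LPS and 230 and 233 CPM in LPS + DEX cells. All 4 treated libraries lay below both basal ones, and the log2 change with LPS was -0.96 (SE 0.11, adjusted p = 0.00017 by limma). Among H2B genes, Hist1h2bg (-0.74) and Hist1h2bf (-0.72) fell most, and among H4 genes Hist1h4f fell by 0.65 on the log2 scale (755 and 1076 CPM to 620 and 533 CPM). Both H3 genes that fell are in the Hist2 cluster: Hist2h3c2 went from 518 and 672 CPM to 412 and 364 CPM, and Hist2h3c1 from 998 and 1305 CPM to 819 and 818 CPM. The Hist1 cluster genes Hist1h3e (459 and 634 CPM, then 559 and 538 CPM) and Hist1h3b (448 and 549 CPM, then 541 and 510 CPM) kept LPS values between the 2 basal ones. Hist1h3a did so too (383 and 545 CPM, then 461 and 427 CPM). In the Hist1 cluster Hist1h3c (615 and 762 CPM, then 604 and 605 CPM) lay below both basal values with LPS. So did Hist2h3b of the Hist2 cluster (448 and 635 CPM, then 392 and 371 CPM), and neither passed the threshold. Hist1h2al, listed by RefSeq as a transcribed pseudogene, had 580 and 740 CPM in basal and 639 and 652 CPM in LPS cells, and how far its reads are shared with other H2A copies was not tested.

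The number of genes past the threshold rested on every library. It was 17 without LPS replicate 1, 9 without LPS replicate 2, 18 without basal replicate 2, 48 without basal replicate 1, and 19 and 18 without LPS + DEX replicates 1 and 2, which share in the estimate of the spread. With the filter on low reads removed, 8 genes passed. Scaling by the median of ratios left 27 that fell, where 279 of all 8847 genes fell and 378 rose. The class sums moved as well: without basal replicate 2 the log2 ratio of LPS to basal went from -0.56 to -0.34 for H2B, from -0.53 to -0.29 for H4, from -0.43 to -0.23 for H2A, from -0.27 to -0.06 for H3 and from -0.18 to -0.1 for H1.

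**Figure D3:**
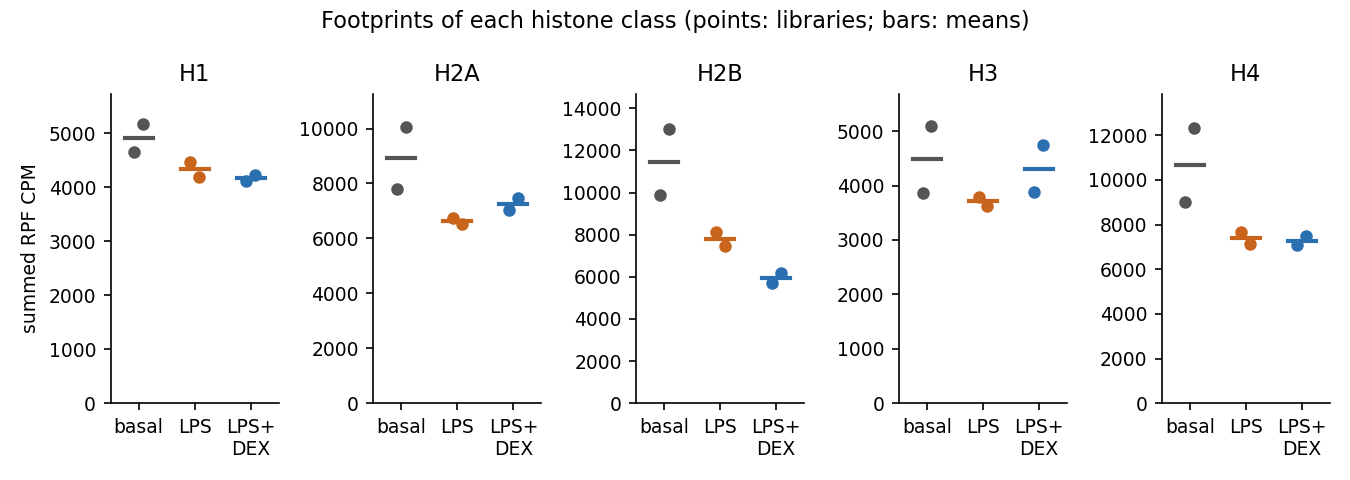
Summed footprint CPM of each histone class by treatment, with 1 point per library and a bar at the mean of the 2 libraries; each panel has its own axis starting at 0. H2B is lower in LPS than in basal cells and lower again in LPS + DEX cells, H4 overlaps between the treated groups, and both LPS + DEX libraries of H3 (3884 and 4738 CPM) lie between the basal values.

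With LPS + DEX, H2B footprints were lower than with LPS alone. H2B sums were 5707 and 6187 CPM, below both LPS libraries (8114 and 7441 CPM), and 48% below basal in the mean. H4 sums were 7068 and 7480 CPM, 32% below basal and overlapping LPS. H2A sums were 7038 and 7463 CPM (18.9% below basal), H1 sums 4106 and 4215 CPM (15.1%) and H3 sums 3884 and 4738 CPM, which overlapped basal. Compared with LPS, H2A and H3 sums were higher, at 1.09 and 1.16 times the LPS mean with no overlap, and H1 sums overlapped. Without basal replicate 2 the log2 ratio to basal went from -0.56 to -0.31 for H4, from -0.3 to -0.11 for H2A and from -0.06 to 0.16 for H3. The 2 listed epithelial markers moved with H2B between the treated groups, with summed footprints of 24.3 to 33.6 CPM in basal, 48.2 to 75.4 CPM in LPS and 17.5 to 33.3 CPM in LPS + DEX cells, and Ddr1, the one that could be tested, was lower with LPS + DEX than with LPS (-1.25, SE 0.31, adjusted p = 0.0284 by limma). Col3a1 was higher (1.04), and of the 8 macrophage markers 2 were higher and 1 lower, with sums of 5388 to 5456 CPM in LPS and 4863 to 5098 CPM in LPS + DEX cells. The part of these markers was not tested. The basal and LPS groups are the same libraries throughout, so the comparisons share them.

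Against basal, 28 of the 59 genes fell and none rose, where 2.86% of all genes fell and 1.77% rose (limma; 42 of 59 had an unadjusted p under 0.05). These were 12 of 15 H2B, 10 of 13 H4, 5 of 19 H2A and 1 of 5 H1 genes, and 0 of 7 H3 genes (none with an unadjusted p under 0.05). The H2B median was -0.95 and the H3 median 0.02, with -0.05 over all genes. Hist1h2bf fell most: it had 607 and 774 CPM in basal, 423 and 411 CPM in LPS and 300 and 321 CPM in LPS + DEX cells. Its 3 groups did not overlap, and its log2 change against basal was -1.14 (SE 0.11, adjusted p = 2.29e-05 by limma). Hist1h2br (-1.1), Hist1h2bn (-1.04) and Hist1h2bq (-1.02) followed. Hist1h1a was the H1 gene that fell, from 533 and 542 CPM to 409 and 422 CPM (-0.37, SE 0.09, adjusted p = 0.0246 by limma). That call was lost with median-of-ratios scaling, without the filter and without either LPS + DEX library. Scaling by the median of ratios left 25 genes that fell, where 186 of all genes fell and 198 rose. The count was 10 and 12 without LPS + DEX replicates 1 and 2, 46 without basal replicate 1, and 9 with the filter removed. Of those 10 and 12 genes, 9 and 11 were H2B genes.

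Against LPS, 7 genes were lower with LPS + DEX and 1 was higher, where 3.55% of all genes were lower and 3.14% higher. All 7 were H2B genes: Hist1h2ba, Hist1h2bc, Hist1h2bf, Hist1h2bk, Hist1h2bp, Hist1h2bq and Hist1h2br, with log2 changes between -0.55 and -0.43. How far their reads are shared with each other or with other H2B copies was not tested. Hist1h2bq, whose promoter interval is shown above, had 954 and 927 CPM in LPS and 634 and 692 CPM in LPS + DEX cells, after 1186 and 1520 CPM in basal cells. The LPS + DEX libraries were below both LPS libraries (-0.5, SE 0.1, adjusted p = 0.0101 by limma). Hist1h2bp went from 1022 and 863 CPM to 654 and 704 CPM (-0.47, SE 0.13, adjusted p = 0.0404). Hist1h2be (-0.36, adjusted p = 0.0518) and Hist1h2bn (-0.43, adjusted p = 0.0518) narrowly missed the threshold in limma's test. The gene that was higher was the H2A gene Hist2h2aa1, at 545 and 466 CPM with LPS and 662 and 695 CPM with LPS + DEX (0.43, SE 0.12, adjusted p = 0.0446). Scaling by the median of ratios gave 9 lower genes, all of them H2B, and 0 higher. These calls need all 4 libraries: without LPS replicate 1, LPS replicate 2, LPS + DEX replicate 1 or LPS + DEX replicate 2, limma called 0 genes (11, 11, 13 and 12 had an unadjusted p under 0.05), and with the filter removed it also called 0 (15 with an unadjusted p under 0.05). Without basal replicate 1 or basal replicate 2 it called 17, 12 lower and 5 higher. The median over H2B genes stayed between -0.47 and -0.35 when any of those 4 libraries was left out.

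**Figure D4:**
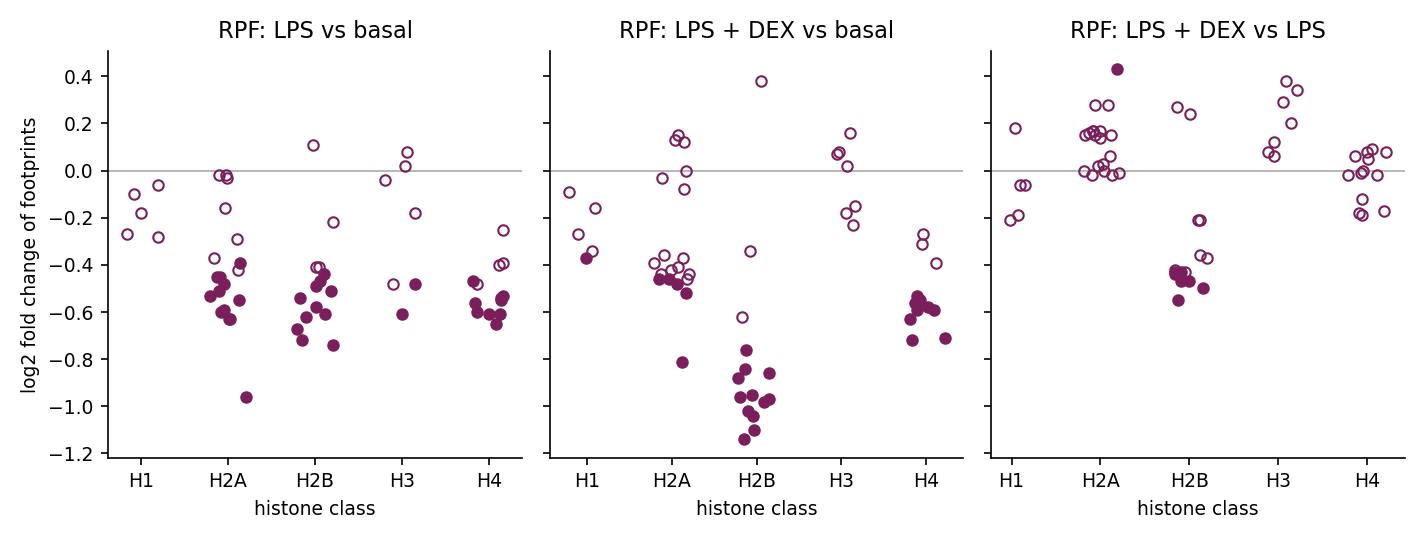
Log2 fold change of footprints for each of the 59 genes, by class, in the 3 comparisons; filled points passed limma's test at an adjusted p under 0.05. H2B genes reach -1.14 in LPS + DEX against basal and hold all 7 lower calls in LPS + DEX against LPS, where H3 genes lie between 0.06 and 0.38 with none passing.

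Ratios between classes within a library do not depend on the library's total. H2B over H2A footprints was 1.27 and 1.29 in basal, 1.2 and 1.14 in LPS, and 0.81 and 0.83 in LPS + DEX cells. H2B over H4 was 1.09 and 1.05, then 1.06 and 1.04, then 0.81 and 0.83, and H2B over H3 was 2.55 and 2.55, then 2.14 and 2.05, then 1.47 and 1.31. In all 3 ratios both LPS + DEX libraries lay below the other 4. H2A and H3 sums were higher in LPS + DEX than in LPS cells, which also lowers H2B over H2A and H2B over H3. H4 over H3 went from 2.33 and 2.42 in basal to 2.03 and 1.97 in LPS and 1.82 and 1.58 in LPS + DEX cells. The gene lengths are the same in every library, so these ratios can be compared between libraries but not read as molar ratios.

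The facing gene pairs give the same comparison between genes that share a promoter interval. Pairs were sought among listed genes with a matched promoter, on opposite strands, with starts at most 250 plus 50 bases apart. This gave 9 H2A and H2B pairs with 163 to 280 bases between their starts. Pairs further apart were not examined. The H2B gene had the lower log2 footprint change in 8 of 9 pairs for LPS + DEX against basal, in 8 of 9 for LPS + DEX against LPS and in 6 of 9 for LPS against basal. In the pair of the first printed interval, Hist1h2bp changed by -0.47 with LPS + DEX against LPS and Hist1h2an by -0.02. In the pair of the second, Hist1h2bq changed by -0.5 and Hist1h2ao by 0.06. Over the pairs, H2A changes in this comparison ran from -0.02 to 0.28 and H2B changes from -0.55 to 0.24. The pair that differed was Hist1h2ag (0.17) and Hist1h2bj (0.24). These counts are a description and restate the difference between the classes from the same values. With LPS + DEX against LPS the medians were -0.43 over all H2B genes and 0.15 over all H2A genes. Genes without a shared interval were not paired for comparison. Reads shared between copies link the pairs, and the difference within pairs was not tested.

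In mRNA most H2A genes were higher in treated cells. H2A sums were 199 and 220 CPM in basal, 487 and 551 CPM in LPS and 742 and 509 CPM in LPS + DEX cells, so all 4 treated libraries were above both basal ones, and the treated groups overlapped. The filter left 22 of the 59 genes, 19 H2A and 3 H1, and no H2B, H3 or H4 gene could be tested. With LPS 8 genes rose, all H2A, against 9.03% of all genes, and with LPS + DEX 11 rose, all H2A, against 18.5%. None fell in either comparison, against 1.68% and 4.23% of all genes, and 13 and 15 of the 22 had an unadjusted p under 0.05. The median change over the 19 H2A genes was 1.3 and 1.35, with 0.26 and 0.28 over all genes tested. Scaling by the median of ratios brings the all-gene medians to 0.01 and 0 and leaves 4 and 8 histone genes that rose, where 184 of all 9277 genes rose and 317 fell with LPS, and 720 rose and 826 fell with LPS + DEX. The fibroblast marker Col3a1 moved with the H2A genes: its mRNA was 3.39 to 16.2 CPM in basal, 46.7 to 51.4 CPM in LPS and 61.6 to 75.1 CPM in LPS + DEX cells, and it rose in both comparisons (2.52 and 2.99). Its part in the H2A result was not tested. Between LPS + DEX and LPS limma called none of the 22 (none had an unadjusted p under 0.05), nor any of all genes (0% called, 183 with an unadjusted p under 0.05), and limma-voom called 0 histone genes too.

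Hist1h2ah had 6.78 and 8.66 CPM of mRNA in basal, 30.7 and 38.2 CPM in LPS and 49 and 34.6 CPM in LPS + DEX cells. Both treated groups lay above basal and overlapped each other, and the log2 change with LPS was 2.02 (SE 0.28, adjusted p = 0.0201 by limma). Hist1h2ap had 18.3 and 17.3 CPM, then 51.4 and 57.5 CPM, then 85 and 62.9 CPM, with a change of 1.56 with LPS (SE 0.21, adjusted p = 0.0195) and 1.98 with LPS + DEX (SE 0.21, adjusted p = 0.0058). Hist1h2ad rose most with LPS + DEX, from 4.75 and 9.74 CPM to 54.9 and 35.4 CPM (2.52, SE 0.37, adjusted p = 0.00855). At the other end was Hist2h2ab, at 12.2 and 2.17 CPM in basal, 3.55 and 7.91 CPM in LPS and 8.3 and 1.77 CPM in LPS + DEX cells. Its groups overlapped, and its changes were -0.02 (SE 0.9) with LPS and -0.35 (SE 0.9) with LPS + DEX. The mRNA counts also rested on single libraries. With LPS they were 0 without LPS replicate 1 or LPS replicate 2 (10 and 11 genes with an unadjusted p under 0.05), 9 without basal replicate 1, the library that differs from the rest, and 12 without basal replicate 2, where 3 H1 genes were called lower. With LPS + DEX they were 0 without LPS + DEX replicate 1 (11 with an unadjusted p under 0.05) 12 without basal replicate 1, and 12 without basal replicate 2, with the same number of H1 genes called lower.

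The TE change combines both readouts. With LPS 24 histone genes had a lower TE than in basal cells (16 H2A, 5 H2B and 3 H4), against 13.6% of all genes, and with LPS + DEX 21 did (15 H2A, 4 H2B and 2 H4), against 12.2%. The H2B and H4 genes among them have mRNA at or near the floor and passed the filter through their footprints. Their calls rest on few mRNA reads but are part of these and the following counts, and no fold is given for them. Among the 19 H2A genes, all of them testable in mRNA, 16 were lower with LPS and 15 with LPS + DEX. For H2A genes the median log2 change in TE was -1.62 with LPS and -1.69 with LPS + DEX, with -0.34 over all genes in both. Hist1h2ah changed most with LPS (-2.62, SE 0.29, adjusted p = 0.001 by limma) and Hist1h2ad with LPS + DEX (-3, SE 0.37, adjusted p = 0.0011). For both, mRNA rose and footprints were lower, as given above for mRNA and at 385 and 509 CPM in basal against 315 and 273 CPM in LPS cells for Hist1h2ah footprints. Between LPS + DEX and LPS limma called 0 of 59 (5 had an unadjusted p under 0.05, and limma-voom called 0), where 0.0531% of all genes passed. Scaling by the median of ratios gave 17 and 14 lower histone genes, where 502 of all 9412 genes were lower and 558 higher with LPS, and 356 lower and 507 higher with LPS + DEX. The count with LPS was 13 without RPF basal replicate 2. The count with LPS + DEX was 13 without that library or without either LPS + DEX RPF library, and 14 without mRNA LPS + DEX replicate 1. Without mRNA basal replicate 1 the counts were 22 and 18. Without mRNA basal replicate 2, which leaves the library that differs as the lone basal one, they were 24 and 27 lower with 5 higher in each. Col3a1, the listed fibroblast marker, also had a lower TE with LPS (-3.53) and with LPS + DEX (-2.95), and its part was not tested. On recovered reads, limma-voom gave 11 and 12 genes.

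Histone variants made outside S phase have polyadenylated mRNA, and the main ones were well covered in the mRNA libraries. Of 11 such genes 10 were listed. H3f3a, which encodes H3.3, had 520 and 546 CPM of mRNA and 715 and 886 CPM of footprints in basal cells, a log2 TE of 0.58 (SE 0.14). H2afz, which encodes H2A.Z, had 790 and 848 CPM of mRNA and 830 and 861 CPM of footprints (0.05, SE 0.09). H2afx, which encodes H2A.X and makes both stem-loop and polyadenylated mRNA, lay between, with 37.3 and 24.4 CPM of mRNA, 414 and 562 CPM of footprints and a TE of 3.95 (SE 0.2). With LPS + DEX its mRNA rose (0.98, SE 0.24, adjusted p = 0.0268 by limma), and its footprint change of -0.28 did not pass (adjusted p = 0.257). Among footprints of these variants, H3f3b rose with LPS (0.34, SE 0.09, adjusted p = 0.0361) and H2afz fell with LPS + DEX against basal (-0.33, SE 0.09, adjusted p = 0.0467). None of the other tested variants passed in the RPF comparisons.

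Some genes that make and process histone mRNA changed in footprints. Slbp, the stem-loop binding protein, had footprints of 84 and 88.1 CPM in basal, 102 and 88.8 CPM in LPS and 117 and 114 CPM in LPS + DEX cells, and no comparison passed (limma adjusted p 0.111 to 0.572). Npat, a transcriptional coactivator of histone genes, had 42 and 30.3, 45.8 and 37.7, and 45.4 and 42 CPM, which overlap between basal and LPS. Nasp, a chaperone of H1 and H3-H4, had 261 and 247, 312 and 315, and 305 and 273 CPM, and the LPS change of 0.31 did not pass (adjusted p = 0.0888). Of 30 genes for histone mRNA transcription, processing and decay, 26 were listed. With LPS 3 of the 26 rose in footprints and 1 fell (median 0.02), where 3.3% of all genes rose and 4.32% fell. Those that changed were all Sm proteins, which are shared with splicing: Snrpf (0.57), Snrpd3 (0.42), Snrpe (0.4) and Snrpg (-0.77). With LPS + DEX against LPS 3 rose (Snrpg, Upf1 and Snrpb) and 1 fell (Snrpe), where 3.14% of all genes rose and 3.55% fell. With LPS + DEX against basal 1 rose, the exonuclease Xrn2 (0.4), where 1.77% of all genes rose.

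Of 30 histone chaperones, all listed, 5 rose in footprints with LPS and none fell: Supt6 (0.87), Anp32e (0.62), Set (0.5), Ncl (0.49) and Anp32b (0.48). Over all genes 3.3% rose and 4.32% fell. The median over the 30 chaperones was 0.03, with -0.07 over all genes. Supt6, a chaperone that travels with RNA polymerase II, had 188 and 136 CPM in basal and 269 and 318 CPM in LPS cells, and the groups did not overlap (SE 0.14, adjusted p = 0.00211 by limma). With LPS + DEX against basal 1 chaperone rose, Nap1l1, which carries H2A-H2B (0.45), and against LPS 1 rose, Ssrp1, a subunit of FACT (0.38). Of all genes 1.77% and 3.14% rose in these comparisons. Of 35 S phase genes, all listed, 1 fell with LPS (Prim2, a primase subunit, -0.67), 0 passed with LPS + DEX against basal, and 2 rose with LPS + DEX against LPS (Mcm4, of the replicative helicase, 0.38, and Fen1, a flap endonuclease, 0.55). Over all genes 4.32% fell in the first comparison, 1.77% rose and 2.86% fell in the second, and 3.14% rose in the third. The medians of the S phase list were -0.07, 0.07 and 0.17 in the 3 comparisons, where those of the histone genes were -0.48, -0.44 and 0.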

How the data were processed

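Poly(A) mRNA and RPF were sequenced on an Ion PGM, per the labels. The values deposited by the authors are CPM plus 1 per Ensembl gene and library, as read from the values: the lowest is 1, and after subtracting 1 all values (100%) are whole multiples of 1 read within 0.1 read. They have no scaling by gene length. Aligner, genome build and annotation: not given in the sources used here. Listed genes hold 97.4% to 98.9% of a library's reads, and 3 reads are worth 1.186 to 3.65 CPM. No molecular identifiers are described, so intervals and floors cover counting error only.

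From these values, 1 was subtracted to give CPM, and limma-trend (limma 3.58.1, R 4.3.3) was run on log2(CPM + 1), so fold changes are on that scale and understate changes of low genes. Genes entered a test with 10 or more reads (at median depth) in 2 or more libraries and a total of 15 or more. The 6 mRNA libraries, the 6 RPF libraries and, for TE, all 12 were fitted with the treatment groups, and p-values were adjusted (Benjamini-Hochberg, two-sided) over all genes tested, with the threshold at 0.05. The fits were tested on simulated data. Class sums are CPM added over members, and TE ratios of classes used pooled mRNA reads with exact 95% Poisson intervals. Symbols matched 9521 of 9621 identifiers. Promoters are from RefSeq: 58 members matched 1 RefSeq gene, 1 matched 2 and was left out, and 5 had no promoter entry.

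The members, gene lists and tests were chosen with earlier results of these data known. Named genes are, per class, the 3 members with the highest mean footprint level, per comparison the 3 highest and 3 lowest changes among those that passed with at least 10 reads in the higher group, 7 fixed context genes, and up to 4 members per context list. Other genes were named after their values were seen, among them Hist1h1c, Hist1h2bj, Hist1h2bk, Hist1h3b, Hist2h2ab, Hist2h3c2, Anp32b, Col3a1, Ddr1 and Krt7. Alternatives were median-of-ratios scaling, totals without histone reads, no filter, log2(CPM + 2), limma-voom on recovered reads (chosen after seeing the data), a replicate block and each library left out.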

Additional observations from a re-analysis of the deposited data

Results flagged for a closer look

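The footprint and mRNA changes of 16 H2A genes with LPS and 15 with LPS + DEX differed by the test of the difference itself (limma, RPF change minus mRNA change). Those with the highest and lowest values make up 8 cases, in all of which the footprint change was below the mRNA change. With LPS against basal these were Hist1h2ad (-2.59), Hist1h2ag (-2.11), Hist1h2ah (-2.62) and Hist1h2ak (-1.29). With LPS + DEX against basal they were Hist1h2ad (-3), Hist1h2ah (-2.71), Hist1h2ap (-2.44) and Hist2h2aa2 (-1.26). They are log2 values, and scaling by the median of ratios moved the all-gene median of the TE change from -0.34 to -0.06 with LPS and to -0.02 with LPS + DEX. The basal mRNA values behind them are 4.33 to 18.9 CPM, so few reads set them.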

How the results depend on the processing

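With median-of-ratios scaling, 4 histone genes rose in mRNA with LPS in place of 8. Without the filter on low reads, footprint calls were 8 (34 with the filter) for LPS and 9 (28) for LPS + DEX against basal, and 0 (8) for LPS + DEX against LPS. The cause was not tested. With limma-voom on recovered reads, 3 genes rose in mRNA with LPS, and TE was called lower for 11 (24) and 12 (21) genes with LPS and LPS + DEX against basal. The cause was not tested. With each library left out in turn, mRNA calls ran from 0 to 15 for LPS and from 0 to 15 for LPS + DEX against basal. Footprint calls ran from 9 to 48, 10 to 46 and 0 to 17 in the 3 comparisons, and TE calls from 13 to 29 for LPS and 13 to 32 for LPS + DEX against basal, higher and lower calls together. A group left with 1 library is assumed there to vary like the others. The log2 ratio of H3 footprint sums for LPS + DEX against basal ran from -0.24 to 0.16, and that of H4 for LPS + DEX against LPS from -0.08 to 0.03. Of 2376 values of named genes with a library left out, 2126 kept their direction and side of the threshold, 250 lost the threshold and 0 reversed. The planned edgeR fit was not run because the deposited values are not raw counts.

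Replicate numbers are shared between groups, and same-numbered libraries did not deviate together (correlations of replicate differences between groups -0.2 to 0.14). A replicate block gave 36, 29 and 10 footprint calls, 6 and 11 mRNA calls, and 21 and 19 TE calls, in the same order of comparisons. Few histone reads limit the mRNA results: no H2B, H3 or H4 gene had enough reads for an mRNA test.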
